A study of Mus musculus with 23 samples.

Results

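Cholesterol synthesis was followed through 7 enzyme genes, Hmgcs1, Idi1, Fdps, Fdft1, Sqle, Lss and Cyp51, in differentiating mouse muscle cells. They were taken by symbol from the 32793 gene rows of the count and TPM tables, all 7 were found, and all 7 were among the 14187 genes that passed the filter on low counts. The cells were C2C12, a mouse myoblast line, either control cells (labelled WT) or cells labelled Runx1KO (KO); Runx1 is a transcription factor gene. Day 0 libraries came from growth medium with 20% fetal bovine serum (2 WT and 3 KO libraries used here), and those of days 1, 3 and 6 from differentiation medium with 2% horse serum (3 libraries per label and day). The day follows the sample titles, while the study's design text gives 5 days for the last time point. How the knockout was made, whether the KO line is 1 clone and whether replicates were separate cultures are not given in the sources used here, so p-values measure only the spread between these libraries, which may be technical. By RefSeq's annotation of GRCm38.p6, Hmgcs1 spans chr13:119690351-119708260, Idi1 chr13:8885606-8892396, Fdps chr3:89093588-89101967, Fdft1 chr14:63145150-63181687, Sqle chr15:59315092-59331193, Lss chr10:76531565-76557139 and Cyp51 chr5:4080674-4104697. The genes were proposed as sterol-responsive genes that would react to the drop in serum. Serum type, serum level and day of differentiation change together between day 0 and the later days and cannot be told apart.

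Library totals were 22197606 to 23684077 estimated counts. Runx1 mRNA was not lower under the KO label: it lay at 83.9 to 165 CPM (counts scaled to the library's total) in the libraries labelled WT and 117 to 319.7 in those labelled KO, and was higher under the KO label on each of the 4 days. The count does not show which part of the gene was altered, so "KO" and "WT" below mean the libraries as labelled. Replicate 2 of the day 1 libraries labelled KO stood apart from its replicates, with a median absolute log2 deviation of 0.320 over genes against 0.0778 to 0.192 in the other libraries, and across genes its deviation had r = -0.62 with the GC content of the longest annotated transcript. In that library Idi1, of low GC content (41.9%), lay 0.57 above the mean of replicates 1 and 3 on the log2 scale, Hmgcs1 (43.1%) 0.37 above and Cyp51 (46.2%) 0.15 above, while Fdps (50.6%) lay 0.38 below. The order by GC content was not strict: Sqle (48.6%) and Lss (48.7%) stood at 0.022 and -0.13, and Fdft1, of the highest GC content (51.8%), at -0.027. Many day 1 values under the KO label are therefore also given without it. As a check of the cell type, the summed TPM (a level scaled by transcript length and library) of 5 myoblast genes was at least 1025 in every library. That of 10 muscle differentiation genes was 3.83 to 4.67 on day 0 and 2565 to 3116 on day 6 under WT, and 4.33 to 6.56 and 15988 to 18812 under KO. The myoblast sum is a coarse check, because its genes did not move together. By day 6 under KO, Myf5 and Des rose since day 0 (log2 fold changes of 1.04 and 0.793), while Myod1 and Pax7 fell (-1.16 and -0.595).

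All 7 enzymes belong to the pathway that builds cholesterol from acetyl-CoA. Hmgcs1 forms HMG-CoA at the head of the mevalonate pathway, Idi1 interconverts the isopentenyl units, and Fdps joins them into farnesyl diphosphate, which also feeds protein prenylation, ubiquinone and dolichol. Fdft1 commits farnesyl diphosphate to squalene, Sqle oxidises squalene, Lss closes the ring to lanosterol, and Cyp51 removes its methyl group at the 14-alpha position. When membrane sterol is low, Scap carries the precursor of the transcription factor SREBP-2 (gene Srebf2) from the endoplasmic reticulum to the Golgi for cleavage, and the released factor, often with NF-Y, switches on these genes, while the Insig proteins hold Scap back when sterol is high. Growing cells use cholesterol for membranes, and serum lipoproteins supply it from outside.

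The RefSeq promoter table (GRCm38.p6) held 4 of the 7 genes, and the 250 bases before each start in that table were searched. They are printed to show which of the motifs below these 4 hold, and the table, not their values, chose them. The table's start of Lss lies 40 bases inside the gene span given above, so the 210 bases before that span are printed and its distances are counted from the table's start. Capitals mark matches, on either strand, to the sterol regulatory element TCACNCCAC, the CCAAT box bound by NF-Y, and the Runx core TGTGGT. Fdps, Fdft1 and Sqle are named only.
Hmgcs1, chr13:119690101-119690350, plus strand: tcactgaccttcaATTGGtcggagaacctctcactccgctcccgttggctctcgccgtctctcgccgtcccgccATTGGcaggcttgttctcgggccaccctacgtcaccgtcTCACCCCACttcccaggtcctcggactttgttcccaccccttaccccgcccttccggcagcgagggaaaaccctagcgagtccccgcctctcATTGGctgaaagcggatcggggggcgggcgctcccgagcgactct
Idi1, chr13:8885356-8885605, plus strand: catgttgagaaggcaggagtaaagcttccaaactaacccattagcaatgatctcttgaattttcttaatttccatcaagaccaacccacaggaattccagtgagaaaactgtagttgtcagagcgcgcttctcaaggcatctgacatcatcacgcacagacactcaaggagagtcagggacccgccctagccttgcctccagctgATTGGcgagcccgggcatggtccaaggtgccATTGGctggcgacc
Lss, chr10:76531355-76531564, plus strand: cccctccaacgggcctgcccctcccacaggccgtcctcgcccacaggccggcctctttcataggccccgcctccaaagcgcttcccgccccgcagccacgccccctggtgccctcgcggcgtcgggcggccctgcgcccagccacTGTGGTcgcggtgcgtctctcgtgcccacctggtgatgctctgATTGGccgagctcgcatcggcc
Cyp51, chr5:4104698-4104947, minus strand: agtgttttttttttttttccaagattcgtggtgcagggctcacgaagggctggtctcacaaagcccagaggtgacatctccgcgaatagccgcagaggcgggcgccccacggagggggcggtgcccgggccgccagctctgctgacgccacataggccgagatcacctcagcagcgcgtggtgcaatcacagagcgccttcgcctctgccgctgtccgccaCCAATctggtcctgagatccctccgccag
TCACNCCAC was matched in Hmgcs1 alone among these 4, starting 137 bases before the start, and in 1.05% of the 32851 promoters of the same length. CCAAT was matched in all 4, 3 times in Hmgcs1 (237, 176 and 45 bases before the start), 2 times in Idi1 (45 and 14), and once each in Lss (62) and Cyp51 (29), against 33.8% of all promoters. TGTGGT was matched in Lss alone, 105 bases before the start, and in 14% of all promoters. No match overlapped another. Of the 14 other sterol synthesis enzymes described below, 12 were in the table, of which 11 held CCAAT, 0 held TCACNCCAC and 0 held TGTGGT. A match describes these letters and is not evidence of binding.

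In the libraries labelled WT, 5 of the 7 genes rose by day 1 against day 0, where 27.1% of all genes tested were called higher, and 6 of 7 by day 3 (29.2%). By day 6, 2 fell (31.1% of all genes were called lower). In the libraries labelled KO all 7 rose by day 1 (27.2%), each with its day 1 libraries above all its day 0 libraries (27% of all genes), 4 rose and 1 fell by day 3 (30.4% higher, 27.2% lower), and 6 fell by day 6 (33.5%). The day 3 count under KO, 5 in either direction (57.6% of all genes), was 3 without replicate 3 of the day 0 libraries labelled KO. The median log2 fold change of the 7 on day 1 was 0.43 under WT and 0.74 under KO, beside medians of 0.015 and 0.035 over all genes tested, and on day 6 it was -0.15 and -0.40, beside 0.047 in both. Comparisons with the same day 0 libraries share them. Fewer cells of a type and less RNA per cell cannot be told apart in these bulk libraries.

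**Figure D1:**
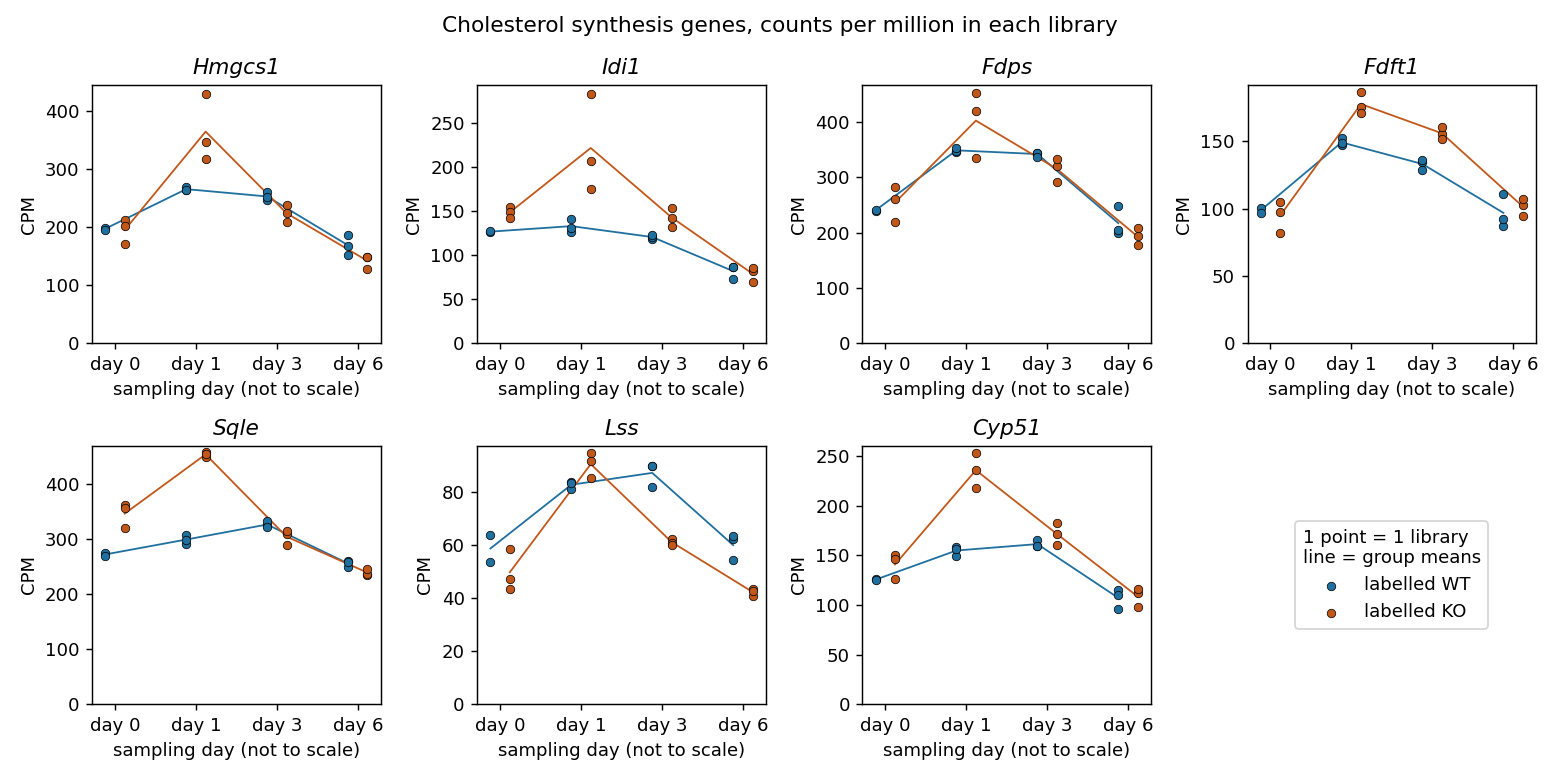
Level in CPM of each of the 7 genes (y axis, starting at 0) by sampling day, 1 point per library, with lines through the group means. The libraries labelled KO have their highest mean on day 1 in all 7 panels, and in the panels of Hmgcs1, Sqle and Lss every KO library lies below every WT library on days 3 and 6.

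Hmgcs1 stood in the libraries labelled WT at 199 and 196 CPM on day 0, 264, 268 and 264 on day 1, 247, 259.9 and 251 on day 3 and 153, 168 and 186 on day 6. Under the KO label it stood at 212, 201 and 172 CPM on day 0, 346, 429.6 and 317 on day 1, 238, 209 and 225 on day 3 and 128, 149 and 149 on day 6. Day 1 was the highest group under each label and every day 1 library lay above every day 0 library of its label. Hmgcs1, the entry enzyme, rose by 0.43 ± 0.11 (log2 fold change ± SE, adjusted p = 0.00234, edgeR's quasi-likelihood test) under WT and by 0.90 ± 0.10 (7.12e-08), or 1.87-fold, under KO. Without the deviating library the KO value was 0.77 (adjusted p = 5.99e-08). On day 3 it was still higher than on day 0 under WT (0.36 ± 0.11, adjusted p = 0.00842), while under KO the value was 0.20 ± 0.10 (0.0898), with overlapping libraries. By day 6 it fell below day 0 under KO (-0.46 ± 0.10, adjusted p = 0.00027), and under WT the value was -0.22 ± 0.11 (0.0785).

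Idi1 stood in the libraries labelled WT at 126 and 127 CPM on day 0, 126, 131 and 141 on day 1, 118, 121 and 123 on day 3 and 73.1, 86.6 and 86.2 on day 6. Its WT libraries of days 0, 1 and 3 lay close together, with days 0 and 1 overlapping. Under the KO label it stood at 155, 149 and 142 CPM on day 0, 207, 282 and 176 on day 1, 143, 132 and 154 on day 3 and 69.4, 81.6 and 85.9 on day 6. The KO day 1 libraries spread more widely than those of any other group, and all 3 lay above the other KO libraries. Idi1, the isomerase, had the smallest early change of the 7 under WT, 0.07 ± 0.13 on day 1 (adjusted p = 0.683) and -0.071 ± 0.13 on day 3 (0.664). Under KO it rose on day 1 by 0.58 ± 0.12 (0.000253), which became 0.37 (adjusted p = 0.000953) without the deviating library. It had the largest late fall of the 7 under both labels, -0.63 ± 0.13 by day 6 under WT (0.000227, 1.55-fold lower) and -0.91 ± 0.12 under KO (4.03e-07, 1.88-fold lower).

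Fdps stood in the libraries labelled WT at 239.9 and 241 CPM on day 0, 346, 347 and 352 on day 1, 344, 344 and 337 on day 3 and 198, 248 and 205 on day 6. In the libraries labelled KO it stood at 282, 260.2 and 219.6 CPM on day 0, 453, 334 and 419 on day 1, 320.0, 292 and 333 on day 3 and 178, 193 and 208 on day 6. The day 1 libraries of both labels lay above all day 0 libraries of their label, and the deviating KO library was the lowest of its 3. Fdps, the farnesyl diphosphate synthase, rose by 0.54 ± 0.12 under WT (adjusted p = 0.000438) and by 0.66 ± 0.10 under KO (1.05e-05), or 0.79 (adjusted p = 1.1e-07) without that library. It stayed higher than day 0 on day 3, by 0.51 ± 0.12 (0.00069) and 0.31 ± 0.10 (0.0128), and the KO call was lost under 2 of 32 alternatives. On day 6 it was lower than on day 0 under KO (-0.40 ± 0.10, adjusted p = 0.00157), with a WT value of -0.15 ± 0.11 (0.273).

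Fdft1 stood in the libraries labelled WT at 100.4 and 97.2 CPM on day 0, 152, 147 and 149 on day 1, 134, 129 and 136 on day 3 and 87.3, 111 and 92.5 on day 6. Under the KO label it stood at 105, 97.3 and 82.0 CPM on day 0, 187, 175 and 171 on day 1, 156, 152 and 160.4 on day 3 and 94.4, 103 and 108 on day 6. No day 1 or day 3 library of either label overlapped the day 0 libraries of that label, whereas the day 6 libraries did. Fdft1, the squalene synthase at the branch point, had the largest day 1 rise of the 7 under both labels, 0.60 ± 0.10 under WT (adjusted p = 1.99e-05) and 0.91 ± 0.087 under KO (9.41e-09), or 0.92 (adjusted p = 7.17e-09) without the deviating library. This lead was small beside the SE, with Fdps at 0.54 ± 0.12 under WT and Hmgcs1 at 0.90 ± 0.10 under KO. Without the deviating library Lss stood at 0.91 under KO. Fdft1 was also the member with the largest day 3 value under KO, 0.72 ± 0.087 (2.43e-07), beside 0.43 ± 0.10 under WT (0.000654). On day 6 its values were -0.027 ± 0.10 (0.819) and 0.10 ± 0.087 (0.318). Of the 4227 exonic bases of Fdft1, 774 are shared with Ctsb on the opposite strand (GENCODE M21), and whether counting used strand is not given in the sources used here. Ctsb, a lysosomal protease gene, rose under WT by 0.32 ± 0.084 by day 1 (adjusted p = 0.0026) and 0.61 ± 0.084 by day 6 (1.39e-06). Under KO its day 1 value was 0.10 ± 0.074 (0.269), or 0.18 (adjusted p = 0.0306) without the deviating library, and it rose by 0.66 ± 0.075 by day 6 (3.88e-08). KO against WT it was lower on day 1, at -0.32 ± 0.074 (0.00124), or -0.27 (adjusted p = 0.00275) without that library, where Fdft1 was higher. Its part in the Fdft1 values was not tested.

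Sqle stood in the libraries labelled WT at 275 and 269 CPM on day 0, 307, 292 and 299 on day 1, 325, 332 and 323 on day 3 and 261, 249 and 258 on day 6. Under the KO label it stood at 362, 356 and 321 CPM on day 0, 449, 459 and 455 on day 1, 309, 289.5 and 316 on day 3 and 235, 236 and 246 on day 6. The KO libraries lay above the WT libraries on days 0 and 1 with no overlap and below them on days 3 and 6. Sqle, the squalene epoxidase, had WT changes of 0.14 ± 0.067 on day 1 (adjusted p = 0.0885), which did not pass, and 0.26 ± 0.067 on day 3 (0.00185). Under KO it rose by 0.39 ± 0.06 on day 1 (8.03e-06; 0.39 without the deviating library), was lower than day 0 on day 3 (-0.19 ± 0.06, adjusted p = 0.0104) and lower again on day 6 (-0.53 ± 0.06, adjusted p = 3.33e-08). The day 3 call was lost under 4 of 32 alternatives. The WT value on day 6 was -0.09 ± 0.067 (0.242).

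Lss stood in the libraries labelled WT at 64.0 and 53.6 CPM on day 0, 84.0, 81.2 and 83.5 on day 1, 82.2, 90.0 and 90.0 on day 3 and 54.5, 62.3 and 63.6 on day 6. In the libraries labelled KO it stood at 58.5, 47.4 and 43.7 CPM on day 0, 95.0, 85.5 and 91.8 on day 1, 62.5, 60.9 and 60.3 on day 3 and 43.7, 40.8 and 42.7 on day 6. Its highest group mean was that of day 3 under WT and of day 1 under KO, and on days 3 and 6 every KO library lay below every WT library of the day. Lss, the lanosterol synthase, rose by 0.49 ± 0.10 on day 1 under WT (adjusted p = 0.000252) and 0.57 ± 0.10 on day 3 (4.75e-05). Under KO the rises were 0.86 ± 0.091 on day 1 (3.76e-08; 0.91 without the deviating library) and 0.30 ± 0.091 on day 3 (0.00779), followed by -0.23 ± 0.092 on day 6 (0.0278), where the libraries overlapped and the call was lost under 8 of 32 alternatives. It shares 381 of 10787 exonic bases with 4930483K19Rik on the opposite strand, which had at most 4 counts in any library.

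Cyp51 stood in the libraries labelled WT at 126 and 125 CPM on day 0, 159, 149.5 and 157 on day 1, 159, 166 and 159 on day 3 and 96.1, 115 and 110.0 on day 6. Under the KO label it stood at 149.9, 146 and 126 CPM on day 0, 236, 253 and 218 on day 1, 172, 161 and 182 on day 3 and 98.1, 112 and 116 on day 6. All 3 KO day 1 libraries lay above every other library. Cyp51, the lanosterol demethylase, rose by 0.30 ± 0.094 on day 1 (adjusted p = 0.00856) and 0.36 ± 0.094 on day 3 (0.00206) under WT. Under KO it rose by 0.74 ± 0.083 on day 1 (8.81e-08), or 0.70 (adjusted p = 1.15e-07) without the deviating library, and by 0.29 ± 0.083 on day 3 (0.00509). By day 6 it fell below day 0 under KO (-0.38 ± 0.083, adjusted p = 0.000354) and under WT (-0.23 ± 0.093, adjusted p = 0.0358), the WT call being lost under 17 of 32 alternatives.

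**Figure D2:**
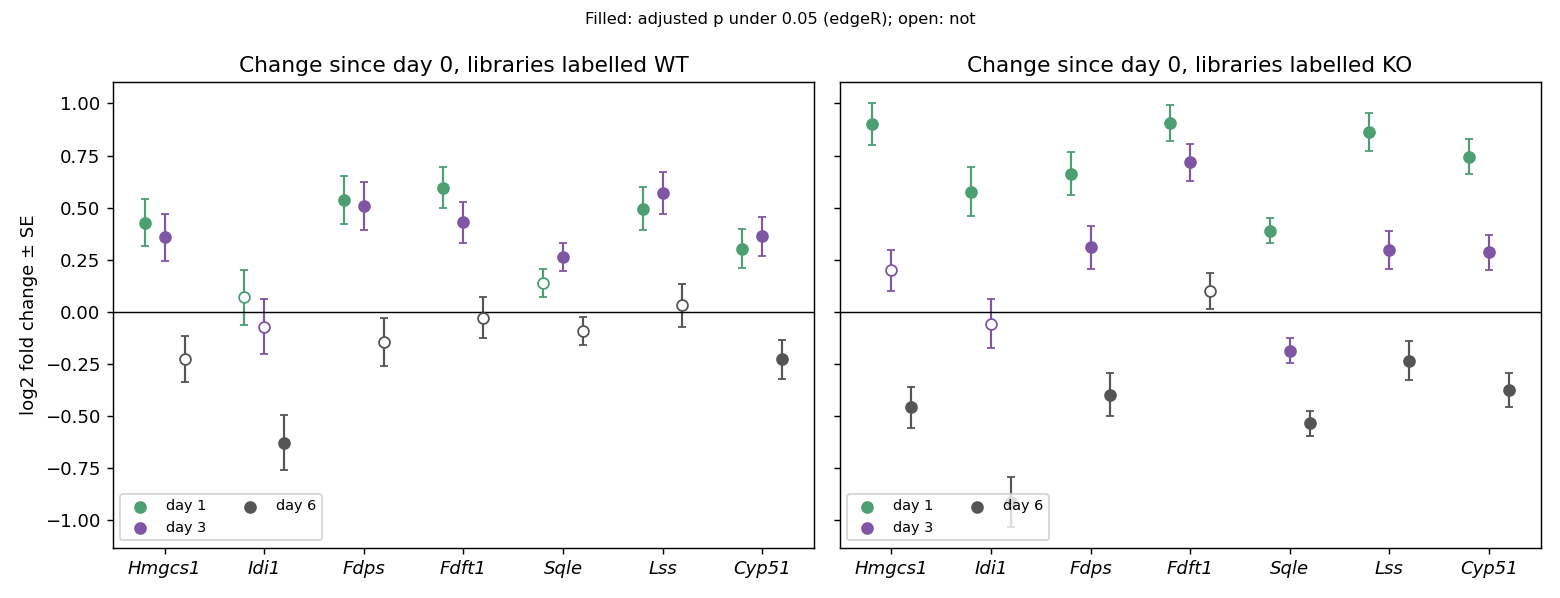
Log2 fold change ± SE since day 0 (y axis) for each gene (x axis) in the libraries labelled WT (left) and KO (right), with a colour per day and filled points where the adjusted p is under 0.05. All 7 day 1 points are filled and above 0 under KO, and 6 of the 7 day 6 points are filled and below 0 there.

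The steps between days were compared within each label. From day 1 to day 3 none of the 7 passed under WT (19.7% of all genes were called in either direction, and 1 of the 7 had an unadjusted p under 0.05; DESeq2 and limma called 0, and 2 passed when only the groups compared were fitted), while under KO 6 of 7 fell (11.2% lower), from -0.35 ± 0.10 for Fdps to -0.70 ± 0.10 for Hmgcs1. Fdft1 was the exception, at -0.19 ± 0.086 (adjusted p = 0.112). Without the deviating library the same number, 6, fell, from -0.43 for Cyp51 to -0.63 for Lss, with -0.49 for Fdps, -0.44 for Idi1 and -0.59 for Hmgcs1, so the order of sizes rests on that library. From day 3 to day 6 all 7 fell under both labels, where 4.92% of all genes were called lower under WT and 21.2% under KO. Under WT this step ranged from -0.35 ± 0.06 for Sqle (adjusted p = 0.000372) to -0.65 ± 0.10 for Fdps (0.000187). Under KO it ranged from -0.35 ± 0.06 for Sqle (5.31e-05) to -0.85 ± 0.12 for Idi1 (4.2e-06). The difference between the labels in these steps was not tested.

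The study compared KO with WT on each day. On day 1, 5 of the 7 genes were higher under KO (22.9% of all genes were called higher): Idi1 by 0.74 ± 0.12 (adjusted p = 2.79e-05), Cyp51 by 0.61 ± 0.083 (3.68e-06), Sqle by 0.60 ± 0.06 (3.75e-08), Hmgcs1 by 0.46 ± 0.10 (0.000669) and Fdft1 by 0.25 ± 0.086 (0.0222). Values for Fdps and Lss were 0.21 ± 0.10 (0.111) and 0.13 ± 0.089 (0.259). Without the deviating library 6 passed, Fdps now at 0.30 (adjusted p = 0.0101). Idi1 then stood at 0.50 (adjusted p = 7.72e-05), Hmgcs1 at 0.30 (adjusted p = 0.00693) and Cyp51 at 0.53 (adjusted p = 1.38e-05), while Sqle, whose 3 KO libraries nearly coincided, stood at 0.57 (adjusted p = 3.3e-08). The Hmgcs1 value thus moved by over 1.5 times with that library. The Fdft1 call was lost under 4 of 32 alternatives.

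On the other days fewer members differed. On day 0 Sqle was the 1 member called, higher under KO by 0.35 ± 0.067 (adjusted p = 0.000614; 7.36% of all genes were called higher). On day 3 Lss was lower, by a log2 fold change of -0.51 ± 0.09 (6.85e-05, 1.43-fold), and Fdft1 higher, at 0.23 ± 0.087 (0.0369), a call lost under 21 of 32 alternatives. 24% and 19.2% of all genes were called higher and lower that day. On day 6 Lss was again lower, at -0.50 ± 0.092 (9.97e-05), and Hmgcs1 was lower, at -0.25 ± 0.10 (0.0462; 20.8% of all genes were called lower), the Hmgcs1 call being lost under 14 of 32 alternatives. On day 3 every KO library lay below every WT library for 4 members, Hmgcs1, Fdps, Sqle and Lss (27.2% of all genes), and above for Idi1 and Fdft1 (33.2%). KO libraries lay below all WT libraries on day 6 for Hmgcs1, Sqle and Lss (25.2%). Of these Lss on both days, Fdft1 on day 3 and Hmgcs1 on day 6 passed. On the TPM scale (limma on log2(TPM + 1)) 4 members passed on day 3 and 4 on day 6, where the change of scale moved the median of all genes by -0.12 and -0.10. Relative to the median of all genes, the median of the 7 was -0.14 on CPM and -0.17 on TPM on day 3, and -0.10 and -0.13 on day 6. When only the groups compared were fitted, 6 passed on day 3. Without the deviating library, which belongs to neither day, 4 passed on each.

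**Figure D3:**
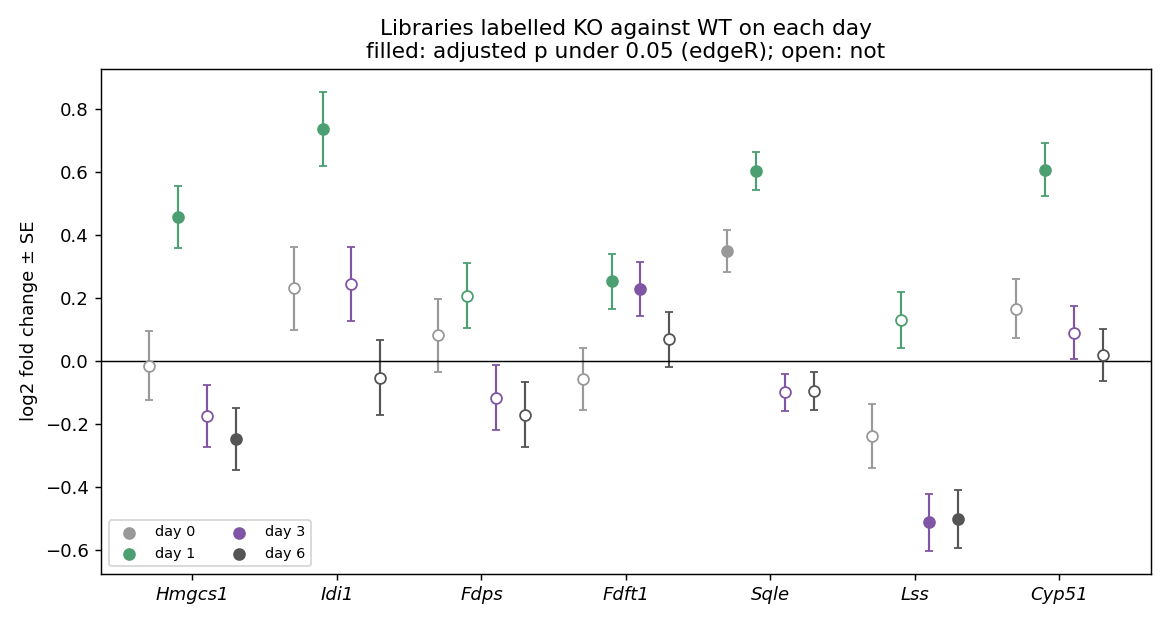
Log2 fold change ± SE of the libraries labelled KO against WT (y axis) for each gene (x axis), with a colour per day and filled points where the adjusted p is under 0.05. Day 1 points lie above 0 for all 7 genes and are filled for 5, and the day 3 and day 6 points of Lss lie at -0.51 and -0.50.

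Whether the change since day 0 differed between the labels was tested as an interaction. On day 1 Cyp51 alone passed, its change under KO exceeding that under WT by 0.44 ± 0.12 (adjusted p = 0.0455; 2.64% of all genes were called in that direction), and the call was lost under 27 of 32 alternatives, among them the fit without the deviating library (0.34 (adjusted p = 0.101)). Hmgcs1 and Idi1 had day 1 values as large, 0.47 ± 0.15 (0.0768) and 0.51 ± 0.18 (0.116), that did not pass, and all 7 values were above 0. Leaving the deviating library out, these became 0.29 and 0.25, below that of Cyp51. Leaving out replicate 3 of the KO day 1 libraries gave 3 calls. On day 3 Sqle alone passed, in the other direction, at -0.45 ± 0.09 (0.00154; 4.06% of all genes), and on day 6 again Sqle, at -0.44 ± 0.09 (0.00132; 5.42%). Both Sqle calls were kept under all 32 alternatives. Its day 0 level, which enters these values, was itself higher under KO.

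Per transcript length, the first 4 of the 7 and the last kept their order in all 8 groups. Fdps had the highest TPM, 347 ± 11.7 (SD, n = 2) in WT on day 0 and 617 ± 65.0 (SD, n = 3) in KO on day 1, followed by Sqle (162 ± 8.61 and 289 ± 16.5), Hmgcs1 (90.1 ± 4.43 and 178 ± 35.8) and Idi1 (72.1 ± 2.38 and 135 ± 39.0). Cyp51 and Fdft1 came next and changed places between groups, and Lss was lowest, at 14.6 ± 2.35 and 23.9 ± 0.289. The summed TPM of the 7 under WT was 775 ± 34.0 on day 0, 1117 ± 19.9 on day 1, 1130.5 ± 20.2 on day 3 and 773 ± 67.8 on day 6 (SD, n = 2, 3, 3 and 3). Under KO the sums were 817 ± 87.4, 1418 ± 39.4, 975 ± 43.1 and 645 ± 14.3 (SD, n = 3 each). The KO libraries thus lay above the WT libraries on day 1 and below them on days 3 and 6, with no overlap on those 3 days. On the mean log2 CPM of the 7, which weights them equally and is not scaled by length, the labels overlapped on day 3 (7.38 to 7.50 under KO and 7.48 to 7.52 under WT) and on day 6 (6.73 to 6.90 and 6.85 to 7.05), and KO lay above WT without overlap on day 1. Fdps and Sqle made up most of this sum in every group. The sum over 21 enzymes of the pathway was 1508 ± 62.6, 2014 ± 32.1, 2030.4 ± 35.1 and 1442 ± 134 under WT and 1496 ± 135, 2433 ± 31.0, 1726 ± 72.5 and 1206 ± 27.8 under KO.

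**Figure D4:**
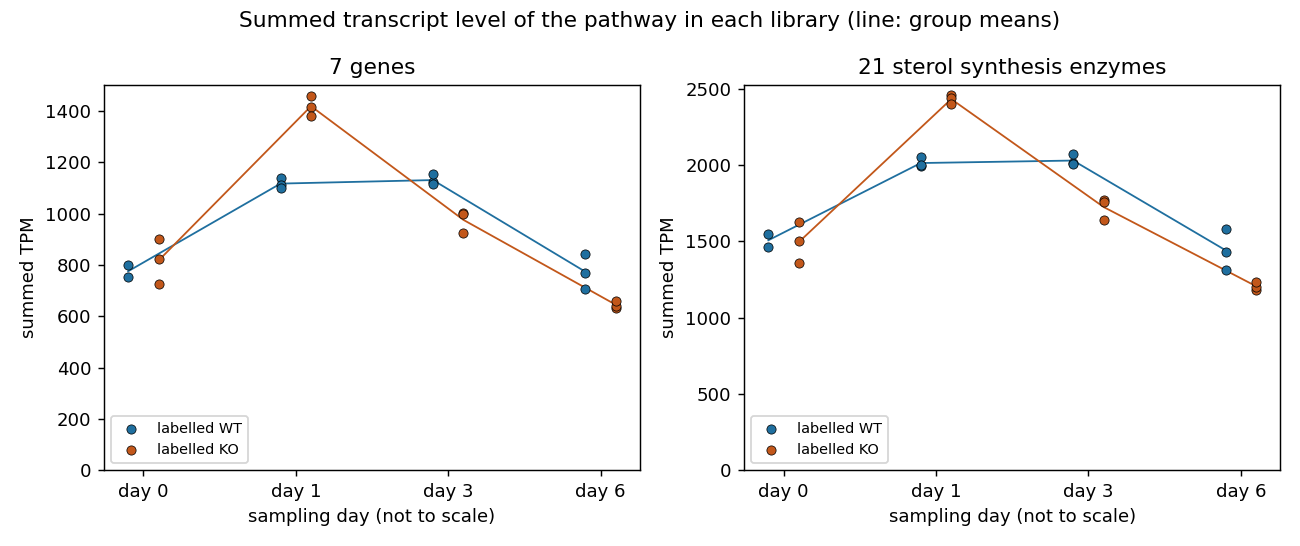
Summed TPM (y axis, starting at 0) of the 7 genes (left) and of 21 sterol synthesis enzymes (right) by sampling day, 1 point per library, with lines through the group means. The KO mean of the 7 is 1418 on day 1 and 645 on day 6, beside 1117 and 773 under WT.

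Ranked by mean CPM over the 8 groups, KO day 1 came first for all 7 genes and KO day 6 last for 5 of them (Hmgcs1, Idi1, Fdps, Sqle and Lss). Cyp51 was lowest in WT on day 6 (107 CPM beside 109 in KO, with overlapping libraries) and Fdft1 in KO on day 0 (94.9 CPM). Neighbours in the order often overlapped: for Lss the KO day 1, WT day 3 and WT day 1 groups (90.7, 87.4 and 82.9 CPM) did, and for Fdft1 so did the 4 lowest groups (102, 98.8, 97.0 and 94.9 CPM), each with the next. For Hmgcs1 the 4 highest groups (KO day 1, WT day 1, WT day 3, KO day 3) did not overlap with their neighbours, at 364, 265, 253 and 224 CPM.

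Over the 23 libraries the log2 CPM of the 7 genes correlated pair by pair with Pearson's r of 0.54 to 0.93, median 0.86, over 21 pairs. These points share their libraries, days and labels, so r is a description. The closest pair was Hmgcs1 with Cyp51 (0.93) and the loosest Idi1 with Lss (0.54). Against the mean of the other 6, Hmgcs1 and Cyp51 had r = 0.97 each and Lss the lowest, 0.78. Within groups, deviations from the group mean gave a median r of 0.46, and 0.58 without the deviating library. Among 10440 genes with a mean of at least 5 CPM, the 10 most like the mean of the 7 included Msmo1 (r = 0.97), Aacs (0.94), Hsd17b7 (0.92), Scd2 (0.91), Pde7a (0.91), Hmgn3 (0.90), Nsdhl (0.89) and Acat2 (0.89). Of these, 4 are sterol synthesis enzymes: Acat2 makes acetoacetyl-CoA, and Msmo1, Nsdhl and Hsd17b7 act together on the methyl groups of the ring. Aacs activates acetoacetate and Scd2 is a stearoyl-CoA desaturase. Only 4 of the 10 stayed among the 10 most like by Spearman's correlation and 5 over the 8 group means, against 8 on log2(TPM + 1) and 8 without the deviating library.

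The 14 other enzymes of the pathway were all tested. By day 1, 4 rose and 2 fell under WT (27.1% of all genes were called higher and 27.6% lower), and 10 rose and 1 fell under KO (27.2% and 25.2%). The WT count that rose is near the share of all genes. By day 6, 1 rose and 7 fell under WT (32.6% of all genes were called higher and 31.1% lower), and 2 rose and 9 fell under KO (36.6% and 33.5%), with medians of -0.27 and -0.36. KO against WT on day 1, 7 were higher (22.9% of all genes). Without the deviating library 12 rose and 1 fell by day 1 under KO, and 9 were higher than under WT. Tm7sf2 and Mvd had the largest day 1 rises of the 14, 1.36 and 0.64 under WT and 1.10 and 0.78 under KO (log2; 1.25 and 0.96 without that library). Tm7sf2 and Lbr both reduce the same sterol double bond, and Lbr, which also anchors chromatin at the nuclear envelope, fell, with log2 fold changes of -0.89 ± 0.10 under WT (adjusted p = 4.08e-08) and -0.52 ± 0.086 under KO (2.56e-05; -0.56 without it). Dhcr7, the last reductase of one route, was higher under KO on day 6 by 0.66 ± 0.12 (adjusted p = 0.000137), where 22% of all genes were higher. On that day Ebp (-0.66 ± 0.10, 1.27e-05) and Acat2 (-0.62 ± 0.087, 3.62e-06) were lower, as Lss was. Ebp was already lower under KO on day 0 (-0.355, adjusted p = 0.0278) and on day 3 (-0.385, 0.00331).

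Of 14 genes of sterol sensing and SREBP control, 5 rose and 4 fell by day 1 under WT (27.1% and 27.6% of all genes), and 8 rose and 3 fell under KO (27.2% and 25.2%), or 7 and 2 without the deviating library. The shares that fell were near those of all genes. Srebf2, the main activator of the 7 genes, rose by 0.56 ± 0.11 under WT (adjusted p = 0.000167) and 0.33 ± 0.10 under KO (0.00708). Its KO day 1 libraries stood at 728, 521 and 746 CPM beside 758, 699.6 and 713 in WT, the deviating library being lowest, and without it the KO change was 0.49 (adjusted p = 4.27e-06). The KO against WT value on day 1 was -0.12 ± 0.10 (0.336), and 0.0038 (adjusted p = 0.976) without that library. Scap fell, with log2 fold changes of -0.73 ± 0.11 under WT and -0.82 ± 0.10 under KO by day 1 (adjusted p = 9.97e-06 and 6.04e-07; -0.64 under KO without that library), and was lower than day 0 on day 6 too (-0.82 ± 0.11 and -0.84 ± 0.10). Insig1, itself an SREBP target, stood at 91.8, 92.0 and 91.7 CPM in WT and 138, 142 and 129.8 in KO on day 1. It rose by 0.59 ± 0.087 (4.83e-06) and 1.03 ± 0.077 (1.73e-10; 1.00 without the deviating library), and was higher under KO on days 1, 3 and 6, by 0.57 (0.52 without it), 0.29 and 0.55. It was still above day 0 on day 6 under KO (0.28 ± 0.077, adjusted p = 0.00253), where 6 of the 7 members were below. Insig2 rose under both labels by day 1 (0.96 and 0.99, or 0.89 without it) and by day 6 (1.41 and 1.34). Srebf1 rose under KO on day 1 by 0.34 ± 0.11 (adjusted p = 0.0124), with libraries that overlapped those of day 0. Without the deviating library the rise was 0.53 (adjusted p = 3.57e-07). Under WT the day 1 value was 0.20 ± 0.12 (0.171). KO against WT on day 1 it was 0.054 ± 0.11 (0.721), and 0.21 (adjusted p = 0.0113) without that library. The day 1 interaction value of Srebf1 was 0.135 ± 0.16 (0.714).

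Of 11 uptake and transport genes, 4 were higher and 5 lower under KO on day 1 (22.9% and 19.2% of all genes), with and without the deviating library. Lrp8 fell under both labels by day 1 (-1.82 and -1.37, or -1.38 without it), while Lipa, the lysosomal lipase that frees lipoprotein cholesterol, rose (1.17 and 1.31, or 1.30 without it).

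Of the 9 efflux and esterification genes, 8 were tested. By day 1, 4 rose and 1 fell under WT (27.1% and 27.6% of all genes) and 3 rose under KO (27.2%). KO against WT, 3 were higher and 4 lower on day 1 (22.9% and 19.2%), and 3 higher and 2 lower on day 6 (22% and 20.8%). Abca1, the efflux pump, had counts of at most 30 in any library and at most 2 on day 0, so no fold is given. Ch25h, which makes an oxysterol that blocks SREBP processing, rose under WT from 4.09 to 18.3 CPM by day 1 (2.16 ± 0.22, adjusted p = 1.43e-08) and under KO from 3.01 to 24.5 (3.02 ± 0.19, 1.49e-11; 3.20 without the deviating library). On day 6 it was higher under KO than WT by 1.83 ± 0.17 (6.68e-09). The 2 lower that day were Abcg1, an efflux transporter (-1.81 ± 0.21, 1.85e-07; 1.87 CPM beside 6.56 in WT), and Soat1, which esterifies cholesterol (-0.27 ± 0.064, 0.00172). Both were also lower on day 1 (-1.78 and -0.74, or -1.70 and -0.78 without the deviating library). Soat1 was already lower under KO on day 0 (-0.436, adjusted p = 9.33e-05), and also on day 3 (-0.567, 1.95e-07). Of the 9 genes on branches that draw on the isoprenoid stem, 4 fell by day 1 under each label (27.6% of all genes under WT and 25.2% under KO), Pdss1 of ubiquinone synthesis the most (-2.17 under WT and -1.39 under KO, or -1.49 without that library). Of the 11 fatty acid targets of SREBP, 8 rose by day 1 under KO (27.2% of all genes), 4 rose and 1 fell under WT (27.1% and 27.6%), and 8 were higher and 2 lower under KO than WT on day 1 (22.9% and 19.2%). Leaving the deviating library out, 7 rose by day 1 under KO, and 8 were higher and 1 lower than under WT. Fads1 and Fads2, the fatty acid desaturases, were higher by 0.71 and 0.72 (0.74 and 0.84 without it), while Acss2 and Lpin1 were lower by a log2 fold change of -0.58 and -0.40 (-0.52 and -0.41 without it, the Lpin1 call being lost). On day 0 Fads2 was already higher under KO than WT (0.327, adjusted p = 0.0478), and Acss2 already lower (-0.741, 0.00246).

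Other marker lists moved with the same groups, and their part in the results above was not tested. All 10 proliferation genes fell by day 1 under both labels (27.6% of all genes were called lower under WT and 25.2% under KO), and all 10 were higher under KO than WT on days 1 and 3 (22.9% and 24% of all genes), with summed TPM of 625 to 650.1 in WT and 960.4 to 1174 in KO on day 1. Of 10 muscle differentiation genes 9 were higher under KO on day 1 (7 without the deviating library, beside 22.9% of all genes with it) and all 10 on days 3 and 6 (24% and 22% of all genes). The summed TPM of 10 interferon response genes was 165 to 257 on day 3 and 642 to 821 on day 6 under KO, beside 26.3 to 27.6 and 31.0 to 34.3 under WT, and all 10 were higher on both days, beside the same 24% and 22% of all genes; these are the days on which Lss was lower. Of 7 adipocyte genes, Adipoq, Cidec, Lep and Cfd were at 0 in all 23 libraries, and the summed adipocyte list ranged from 2.90 to 20.2 TPM. The 1 member tested, Pparg, a nuclear receptor gene of fat cell differentiation, fell by day 1 under WT from 19.8 to 9.70 CPM (log2 fold change -1.03 ± 0.14, adjusted p = 9.29e-07) and under KO to 5.47 (-1.14 ± 0.13, 1.78e-07; -1.14 without the deviating library). It was lower under KO than WT on all 4 days, at -0.72, -0.83, -1.01 and -0.82. Of 6 blood and endothelial genes, 2 were tested and the macrophage gene Adgre1 was at 0 throughout. Cd68, also a macrophage marker, stood at 1.60 CPM on day 0 and 10.7 on day 6 under KO, a rise of 2.73 ± 0.28 (adjusted p = 8.12e-09), beside 0.79 ± 0.32 under WT (0.0381), and was higher than under WT on day 6 by 1.68 ± 0.26 (1.15e-05). The summed TPM of these 6 was 15.5 to 17.3 under KO and 4.50 to 8.38 under WT on day 6.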

How the data were processed

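RNA sequencing of poly(A) RNA was analysed in 23 libraries. Per the submitters' processing notes, reads were processed with Bowtie2 and RSEM on mm10; versions and settings are not given in the sources used here. The authors deposited 1 table of expected counts (RSEM estimates, rounded here to whole numbers) and 1 table of TPM values, both by gene symbol. Counts were tested with edgeR 4.0.16 (TMM scaling, filterByExpr with a minimum count of 10 and minimum total of 15, quasi-likelihood F-test) in 1 group-means fit over all 23 libraries and 17 contrasts. Benjamini-Hochberg adjustment ran over all 14187 genes tested in a contrast, and a call is an adjusted p under 0.05. DESeq2 1.42.0 and limma 3.58.1 (pseudocounts of 1 and 0.1 on TPM), run in R 4.3.3, served as alternatives. The spread of 2 or 3 libraries limits the precision.

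The members and gene lists were chosen with earlier results of these data known. Beyond the 7 members, the rule named 9 regulators and targets; of each other list up to 2 genes with the most positive and 2 with the most negative log2 fold change among those called, with a mean of at least 5 CPM in one group in a contrast described, and the 10 genes most like the members by Pearson correlation. Genes sharing exonic bases with a member, and markers at 0 or beside them, were named after their values were seen, and list counts and genes without replicate 2 of the KO day 1 libraries were added then. Some genes the rule names are not reported here. The fit was tested on simulated counts: the criterion was narrowed after genes of low count were missed, and it was met for genes of moderate and high count. Same-numbered replicates did not deviate together (mean r of -0.098 to 0.094 over 28 pairs of groups). Promoter matches were searched in the 250 bases before the start on both strands.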

Additional observations from a re-analysis of the deposited data

Results flagged for a closer look

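Among the 7 members and 6 regulators and related genes named throughout, the change since day 0 differed between the labels for 4, by the interaction test in edgeR with adjustment over all genes. Among the members these were Cyp51 on day 1, by 0.44 more under KO on the log2 scale (adjusted p = 0.0455), and Sqle, with KO-minus-WT differences of change of -0.45 on day 3 (0.00154) and -0.44 on day 6 (0.00132). The Insig1 change under KO exceeded that under WT by 0.44 on day 1 (0.0319) and 0.42 on day 6 (0.0168). Runx1 rose more under the KO label by 0.51 on day 6 (0.00658). Without replicate 2 of the KO day 1 libraries the day 1 values were 0.34 (adjusted p = 0.101) for Cyp51 and 0.36 (adjusted p = 0.0578) for Insig1. Of the 32 alternatives, the Cyp51 call was lost under 27 and the Sqle calls under none of them, while the Insig1 calls were lost under 15 (day 1) and 6 (day 6) and that of Runx1 under 1. Groups of 2 or 3 held too few libraries for a test of single outlying values.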

How the results depend on the processing

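Each of the 119 member values (7 genes in 17 contrasts) was recomputed under 32 alternatives: other scalings, filters, tools and units, only the groups compared, the replicate block, and each library left out. Of 64 calls, 52 were kept under all of them and 12 were lost under at least 1, and of 55 values not called 19 passed under at least 1. No called value changed sign. A sign change counts as a reversal here only where a value passed in either fit, a definition settled after the values were seen; 71 recomputed values over 13 gene-contrast pairs did change sign, none past the threshold in either fit and none above 0.15 in size.

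By setting, the members called since day 0 on day 6 under WT went from 2 to 1 with RLE scaling, library size only, a mean count of at least 50, DESeq2, limma on either TPM scale and only the groups compared. KO against WT, the count on day 3 (2) became 1 with RLE scaling and with no filter, 4 on either TPM scale and 6 with only the groups compared. On day 6 (2) it became 1 with RLE scaling, a mean count of at least 50 and the replicate block, and 4 with library size only and on either TPM scale. With only the groups compared it was 2 on day 0 (1 with all groups fitted) and 2 from day 1 to day 3 under WT (0). The day 1 interaction count (1) became 0 with the filter dropped or raised to a mean count of 50, RLE scaling, either TPM scale, only the groups compared and the replicate block, and 2 with DESeq2. The replicate block left 117 of 119 member values on their side of the threshold and weakened 2; the labels' numbers share only a number.

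With only the groups compared, the genes called were 3607 for KO against WT on day 1 (5981 with all groups fitted), 1659 from day 1 to day 3 under KO (3790), 4642 for the same step under WT (2797), and 239 and 2613 for the interactions on day 1 (560) and day 3 (1519). Leaving out 1 library gave 1265 to 3459 genes for KO against WT on day 0, 762 to 2271 from day 3 to day 6 under WT, and 148 to 919, 829 to 2302 and 1184 to 2844 for the interactions on days 1, 3 and 6. The lowest counts came without replicate 1 of WT day 0, replicate 1 of WT day 6 and, for the interactions, replicate 2 of WT day 0, and the highest without replicate 2 of KO day 1, or replicate 3 for the day 1 interaction. Leave-one-out counts of members called ranged over 1 to 2, 1 to 4 and 1 to 4 for KO against WT on days 0, 3 and 6, 3 to 6 on day 3 under KO, 1 to 2 on day 6 under WT and 0 to 3 for the day 1 interaction. The counts of 4 for KO against WT came without replicate 2 of KO day 1. The cause was not tested. The TPM scale moved the share of calls that were higher by over 10 points in 10 of 17 contrasts, for KO against WT from 42.1% to 31.3% on day 0, 54.4% to 43.3% on day 1, 55.5% to 34.3% on day 3 and 51.4% to 34.9% on day 6. Since day 0 it went from 49.6% to 60.6%, 50.1% to 63.8% and 51.2% to 63.5% on days 1, 3 and 6 under WT and 51.9% to 65.2% on day 1 under KO, and for the interactions from 66.8% to 51.4% on day 1 and 62.1% to 45.2% on day 3 (62.1% to 51.6% with RLE scaling). With library size only it went from 42.1% to 29.5% for KO against WT on day 0. The TPM scale moved the median of all genes by over 0.1 in 4 contrasts.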

Other observations

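Among the 10 genes whose levels followed the 7 most closely, Aacs, Pde7a and Hmgn3 are on no list used here. By day 1 under KO they rose by 0.67 ± 0.10, 0.59 ± 0.082 and 0.92 ± 0.084 on the log2 scale (0.79, 0.56 and 0.86 without replicate 2 of the KO day 1 libraries), and all 3 were higher under KO than WT that day, with and without it. By day 6 under KO they fell below day 0, with log2 fold changes of -0.34 ± 0.10 (adjusted p = 0.00362), -0.21 ± 0.084 (0.026) and -0.35 ± 0.086 (0.000808). They were chosen by their likeness to the members, so these directions are a description. Among the 14 other enzymes likeness was uneven: Msmo1 had r = 0.97 with the mean of the 7, Lbr 0.34, Ebp 0.46 and Dhcr7 -0.040.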
